A study of Mus musculus with 3 samples.

Results

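Basement membrane component genes were followed across 3 RNA-seq libraries of mouse embryonic stem (ES) cells. The group was chosen as genes of known basement membrane components, with no measured value in the rule although earlier results of these data were known, and comprised collagen IV (Col4a1, Col4a2), laminin chains (Lama1, Lama5, Lamb1, Lamc1), nidogen 1 (Nid1), perlecan (Hspg2) and SPARC (Sparc). All 9 were found among the 15311 genes of the table, and all 9 were among the 13829 genes tested. Every line made its H2A.Z from a lentiviral transgene fused to yellow fluorescent protein (YFP), driven by a CMV promoter with rtTA and induced by doxycycline at 1 µg/ml, and every line also carried a hairpin against the 3′ UTR of the endogenous H2A.Z transcript. The labels give the strain as V6.5 (129SvJaexC57BL/6), whereas their protocol names KH2 as the ES cell line that was infected. In the wild-type group (2 libraries) the transgene encoded unaltered H2A.Z. In the K3R3 group (1 library) it encoded H2A.Z.K3R3, in which 3 C-terminal lysines, residues that can be mono-ubiquitylated, are arginines. YFP-positive cells were sorted, and cells were grown in serum and LIF on feeder fibroblasts until a last passage without them. The sources used here do not give whether a line was 1 clone, or whether the wild-type pair stems from separate cultures. The p-values therefore reflect no more than the spread among these libraries, and it may be technical.

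Basement membranes are thin sheets of extracellular matrix on which epithelia rest. Laminins are cross-shaped trimers of an α, a β and a γ chain that polymerise on the cell surface, collagen IV forms a second, covalently linked network, and nidogen and perlecan connect the networks. In the early mouse embryo the primitive endoderm secretes much of the basement membrane that underlies the epiblast, and ES cells themselves make laminin, which anchors them through integrins.

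The libraries held 21614693 and 25426228 counts for wild-type replicates 1 and 2 and 24718223 for K3R3. The wild-type pair was kept as 2 samples, since its counts differed beyond sampling noise (chi-square of 24.3 per degree of freedom over genes). H2afz, the targeted gene, stood at 219 and 232 CPM in the wild-type pair and 222 in K3R3, which checks neither label, since the transgene adds coding reads in both groups. CPM are counts scaled to library size after TMM normalisation, which assumes that most genes do not differ. All 20 pluripotency markers examined had counts in each library, as every gene of the deposited table did, so this checks nothing. Dppa5a stood at an RPKM (counts per length of gene, scaled to library size) of 1875 and 1215 in wild type and 1124 in K3R3.

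The collagen IV pair is shown first at sequence level, because both genes start from the same stretch of DNA. In the RefSeq promoter table (build GRCm38.p6), which covers 250 bases before and 50 after each start, 7 of the 9 members were matched. Col4a1 and Col4a2 lie on opposite strands of chromosome 8, their listed start sites are 21 bases apart, and their windows share 78 bases, of which 73.1% are G or C (median of all windows 52.7%). The shared part holds 1 GC box (GGGCGG or its complement CCGCCC), the only one of the Col4a1 window. That GC box lies between the listed start sites, so it comes after the start of each gene on that gene's strand, not before it. Below are 30 bases of that shared part read on each gene's own strand, at chr8:11312800-11312829, followed by the GC box next before the start site of Lamb1 (chr12:31265206-31265235, plus strand) and that of Nid1 (chr13:13437523-13437552, plus strand). These 4 members are shown because their windows held both motifs that were found in any member. All are written 5′ to 3′, with every GC box in the stretch in capitals.
Col4a1: cccttggagacgCCGCCCgcgcactgccga
Col4a2: tcggcagtgcgcGGGCGGcgtctccaaggg
Lamb1: cctCCGCCCcctCCGCCCccgctctccatg
Nid1: gacaggcggggtGGGCGGgccctcccccat

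Over both strands, a GC box was present in 6 of the 7 matched windows (Sparc had none) and in 35.7% of all 32851 windows. CCAAT was present in 4 of the 7, those of Col4a1, Col4a2, Lamb1 and Nid1, against 37.4% of all. TATAAA (13.6% of all) and the GATA-factor motif AGATAA (11.2% of all) were present in 0 of the 7. A match is a description of letters, not of binding. By the class codes of the deposited table, Col4a1 and Col4a2 were coded bivalent (promoters with both an activating and a Polycomb mark in ES cells) and the other 7 members active. Of all 13829 tested genes, 1671 were coded bivalent and 10984 active.

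Most basement membrane transcripts were at their lowest in the K3R3 library, but only Col4a1 and Lama1 fell by the test. Of the 9 members, 7 lay below both wild-type libraries (Col4a1, Col4a2, Lama1, Lamb1, Lamc1, Nid1, Sparc), a position taken by 34.2% of all tested genes and by 44.7% of those whose mean level reached 10 CPM, as it did for all members. Lama5 and Hspg2 lay between the wild-type values. The fitted change was below 0 for all 9, as it was for 52% of tested genes and 65% of those at 10 CPM or more. By edgeR's quasi-likelihood test at a Benjamini-Hochberg adjusted p of 0.05, 2 members were lower, 0 were higher and 7 were not called, while 0.542% of all tested genes were called lower (0.739% of those at 10 CPM or more) and 2.02% higher. Under other settings the same 2 members were called by edgeR's likelihood ratio test, with DESeq2 size factors, with the library totals that the RPKM values imply, without a low-count filter and at a minimum mean of 2 CPM, where 0.463%, 0.593%, 0.378%, 0.49% and 0.617% of genes were called lower. DESeq2 called 1 member (0.188% of genes lower) and limma on log2(RPKM + 0.1) called 0 (0.434%). Of all called genes 78.9% were higher in K3R3, and 55.9% by DESeq2 and 90.3% with the implied totals. The median log2 change of the members was -0.54, against -0.01 for all tested genes. In these bulk libraries, fewer cells of a kind and less RNA per cell cannot be told apart.

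The wild-type replicates were themselves apart on these genes. Replicate 2 was lower than replicate 1 for all 9 members, as it was for 48.9% of tested genes and 46.7% of those at 10 CPM or more, with a median log2 difference of -0.40 for the members and 0.01 for all tested genes. Summed over the members, the level was 1835 CPM in replicate 1, 1445.5 in replicate 2 and 1150 in K3R3. The K3R3 median was -0.66 against replicate 1 and -0.36 against replicate 2. The spread between the wild-type libraries was thus of the same order as the distance from replicate 2 to K3R3.

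**Figure D1:**
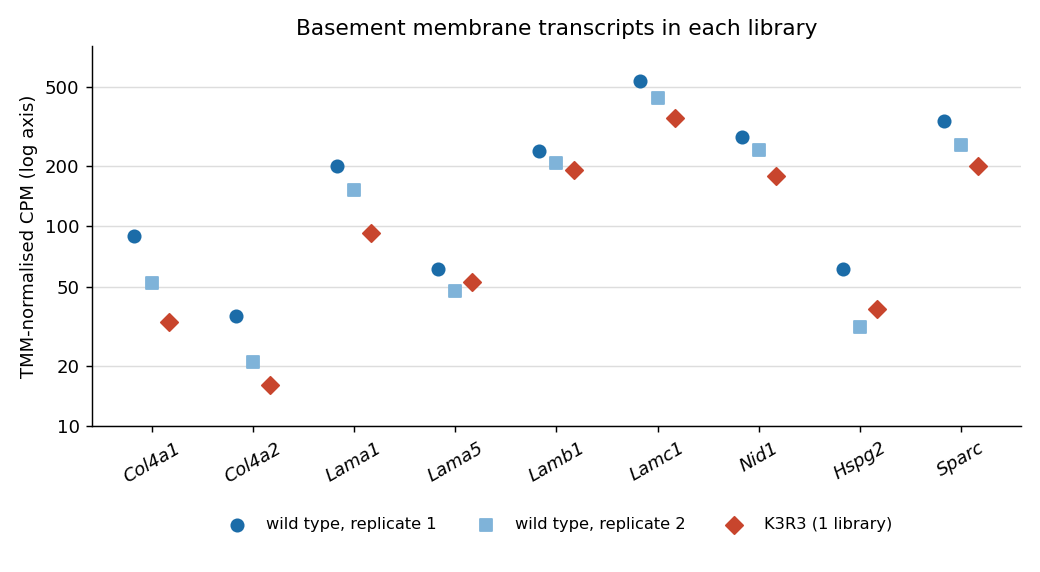
Level of each member in each library, in TMM-normalised CPM on a log axis. Circles and squares are the 2 wild-type replicates and diamonds the lone K3R3 library, so no error bar is drawn. K3R3 is the lowest point for 7 genes and lies between the wild-type points for Lama5 and Hspg2.

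Of the collagen IV members, Col4a1 fell in K3R3 and Col4a2 was not called. Col4a1 and Col4a2 encode the α1 and α2 chains, which assemble into the collagen IV trimer of nearly all basement membranes. Col4a1 stood at 89.9 and 52.4 CPM in wild-type replicates 1 and 2 and at 33.2 CPM in K3R3. It fell 2.14-fold (log2 -1.10, SE 0.26; adjusted p = 0.0024 by edgeR), with K3R3 below both wild-type values. This SE, like the others given here, comes from a spread shared by genes of similar level, not from the gene's own replicates. The difference was -1.44 against replicate 1 and -0.66 against replicate 2, and replicate 2 lay -0.78 from replicate 1, so the wild-type libraries were farther from each other than K3R3 was from replicate 2. Of 7 other settings that carry a test, DESeq2 (adjusted p = 0.118) and limma on log2(RPKM + 0.1) (adjusted p = 0.0725) did not keep this call, and adjusted p ranged from 0.0021 to 0.118 over the 7.

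Col4a2 showed the same order of libraries at a lower level. It stood at 35.5 and 21.0 CPM in the wild-type pair and 16.1 CPM in K3R3. The log2 difference of -0.81 (SE 0.32, 95% interval -1.43 to -0.19) was not called after adjustment over all genes (adjusted p = 0.191 by edgeR). Per length, Col4a1 exceeded Col4a2 by a ratio of RPKM values of 2.46 and 2.43 in wild type and 2.00 in K3R3. The 95% counting interval of the K3R3 ratio was 1.78 to 2.25, which meets that of wild-type replicate 2 (2.19 to 2.69) and does not meet that of replicate 1 (2.26 to 2.68). Outside the 9, and named after their values were seen, the chains Col4a5 (log2 0.75; adjusted p = 0.578 by edgeR) and Col4a6 (log2 0.84; adjusted p = 0.849) lay above both wild-type libraries and were not called.

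Among the laminin α chains, Lama1 fell in K3R3 and Lama5 was not called. Lama1 encodes α1, the chain of laminin-111 made by the early embryo and its endoderm, and Lama5 encodes α5, the chain of laminin-511 on which ES cells adhere and renew. Lama1 stood at 200.3 and 152 CPM in the wild-type pair and 92.2 CPM in K3R3. It fell 1.91-fold (log2 -0.93, SE 0.21; adjusted p = 0.0019 by edgeR), by -1.12 against replicate 1 and -0.72 against replicate 2, beside -0.40 between the replicates. DESeq2 kept this call (adjusted p = 0.0482) and limma did not (adjusted p = 0.0755), with adjusted p from 0.0016 to 0.0755 over the 7 settings.

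Lama5 stood at 61.6 and 47.4 CPM in the wild-type pair and 53.0 CPM in K3R3, between the replicates. Its log2 difference was -0.04 (SE 0.25, 95% interval -0.53 to 0.45; adjusted p = 1.00 by edgeR), and it turned to 0.087 when scaled by the totals that the RPKM values imply, under which the median of all genes moved from -0.01 to 0.10. The ratio of Lama1 to Lama5 within a library does not depend on the scaling of libraries. By RPKM it was 3.89 and 3.84 in wild type (mean 3.87 ± 0.0383 SD, n = 2) and 2.08 in K3R3, 0.538 times the wild-type mean. The 95% counting intervals were 3.66 to 4.15 and 3.59 to 4.10 in wild type and 1.95 to 2.22 in K3R3, and cover counting error only. This ratio was chosen after the values were seen, and with 1 library against 2 the smallest p that an exact permutation test allows is 0.333.

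The β and γ chains that both trimers share were not called. Lamb1 encodes β1 and stood at 238 and 207 CPM in the wild-type pair and 191 CPM with K3R3 (log2 -0.22, SE 0.20, 95% interval -0.61 to 0.17; adjusted p = 0.878 by edgeR). Lamc1 encodes γ1, the chain that binds nidogen and the most abundant of the 4 laminin chains per length. It stood at 532 and 437 CPM in the wild-type pair and 347 CPM with K3R3 (log2 -0.48, SE 0.19, 95% interval -0.84 to -0.12; adjusted p = 0.177 by edgeR). Both lay below their wild-type values in K3R3, Lamb1 by less than the replicates differed from each other when set against replicate 2 (-0.12 beside -0.20).

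Chain proportions were also set against Lamc1 within each library. The RPKM ratio of Lama1 to Lamc1 was 0.302 and 0.279 in wild type and 0.213 in K3R3. That of Lama5 to Lamc1 was 0.0775 and 0.0726 in wild type and 0.102 in K3R3. That of Lamb1 to Lamc1 was 0.591 and 0.625 in wild type and 0.726 in K3R3. For each of these 3 ratios the K3R3 value lay outside the wild-type pair and its counting interval met neither of theirs. Lama1 was a smaller and Lama5 and Lamb1 a larger share relative to γ1. The wild-type intervals of Lama1 to Lamc1 (0.291 to 0.313 and 0.269 to 0.289) did not meet each other either, whereas those of the other ratios did. Such intervals cover counting error only, so a gap between them cannot separate K3R3 from the spread between libraries. None of the 3 ratios has a replicate in K3R3.

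**Figure D2:**
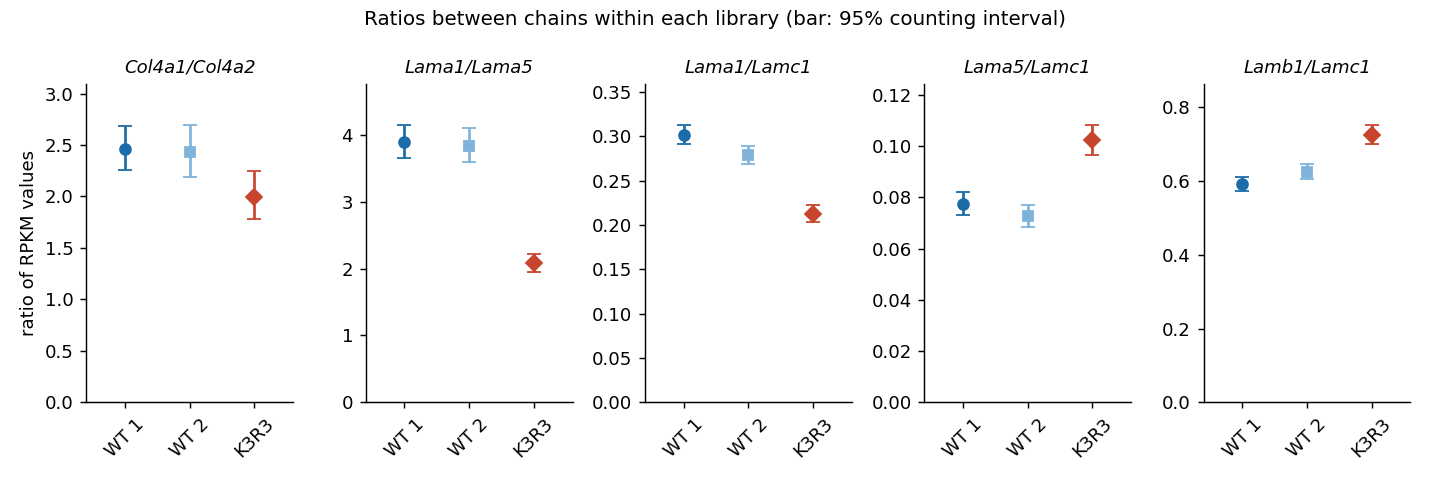
Ratios of RPKM values between chains in each library, with a separate linear axis from 0 for each pair and 95% counting intervals as bars. The Lama1 to Lama5 ratio is 3.89 and 3.84 for the wild-type pair and 2.08 for K3R3, and the Col4a1 to Col4a2 interval of K3R3 meets that of wild-type replicate 2 but not that of replicate 1.

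The linkers of the networks and the collagen-binding protein SPARC were not called. Nid1 encodes nidogen 1, which bridges laminin and collagen IV. It stood at 279 and 242 CPM in the wild-type pair and 179 CPM with K3R3 (log2 -0.54, SE 0.20, 95% interval -0.93 to -0.15; adjusted p = 0.134 by edgeR). K3R3 lay -0.43 from replicate 2, more than the -0.21 between the replicates. Hspg2 encodes perlecan, the heparan sulfate proteoglycan of basement membranes. It stood at 61.0 and 31.3 CPM in the wild-type pair and 38.5 CPM with K3R3 (log2 -0.26, SE 0.27, 95% interval -0.78 to 0.27; adjusted p = 0.921 by edgeR). Its difference was -0.66 against replicate 1 and 0.30 against replicate 2, and the replicates differed by -0.96, the widest gap of any member.

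Sparc encodes a secreted calcium- and collagen-binding glycoprotein that is abundant in parietal endoderm. It stood at 337 and 255 CPM in the wild-type pair and 199.6 CPM with K3R3 (log2 -0.57, SE 0.20, 95% interval -0.95 to -0.19; adjusted p = 0.0958 by edgeR). K3R3 was below both replicates, by -0.76 and -0.36, beside -0.40 between them. At an unadjusted p under 0.05 by edgeR, 6 members were lower (Col4a1, Col4a2, Lama1, Lamc1, Nid1, Sparc), as were 3.33% of all tested genes. At that threshold 0 members were higher, beside 1092 of the 13829 tested genes.

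**Figure D3:**
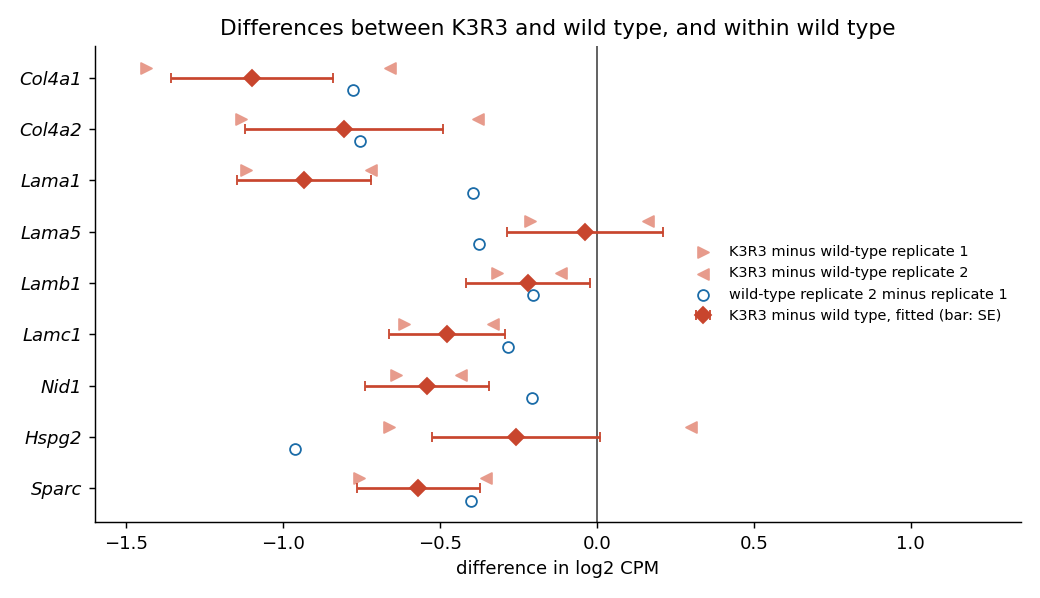
Differences in log2 CPM for each member, with the fitted change of K3R3 from wild type and its standard error (diamonds and bars), K3R3 against each wild-type replicate (triangles) and replicate 2 against replicate 1 (open circles). The standard errors rest on a spread shared by genes of similar level, not on each gene's own replicates. Every open circle is left of 0, and K3R3 is right of 0 only for Lama5 and Hspg2 against replicate 2.

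Levels per length separated the members widely in wild type. In RPKM (mean ± SD, n = 2), Sparc stood at 83.5 ± 15.5, Lamc1 at 41.2 ± 5.28, Nid1 at 27.9 ± 2.55 and Lamb1 at 25.0 ± 2.22. Lama1 followed at 12.0 ± 2.20, Col4a1 at 6.96 ± 2.52, Lama5 at 3.10 ± 0.537, Col4a2 at 2.84 ± 1.01 and Hspg2 at 2.10 ± 0.940. The wild-type ranges of Nid1 and Lamb1 overlapped, as did those of Lama5 and Col4a2 and of Col4a2 and Hspg2. Within each wild-type library, however, Nid1 (29.7 and 26.1) was above Lamb1 (26.6 and 23.4), and Col4a2 (3.55 and 2.13) was above Hspg2 (2.77 and 1.44). The order of Lama5 (3.48 and 2.72) and Col4a2 differed between the wild-type libraries. In K3R3 the order was the same except within such pairs, with Lamb1 (23.4) above Nid1 (20.9) and Hspg2 (1.92) above Col4a2 (1.77).

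In the authors' deposited table, all 9 members were higher in wild type by its log2 column, whose header reads K3R3 against wild type but whose sign ran the other way for 100% of 1300 genes with a fitted change above 2-fold. Its unadjusted p was under 0.05 for Nid1 (0.0211) and Lama1 (0.0318), which held with wild type higher for 1.19% of all rows of the authors' deposited table. For Col4a1 the authors' deposited table gave p = 0.233. All directions here rest on the names of the count columns.

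The other basement membrane genes listed had a median change above 0, and a difference from the 9 members was not tested. They were further laminin and collagen IV chains, nidogen 2, agrin, the endostatin collagens, fibulins, SMOC proteins, nephronectin and the Fraser complex. Of 28 listed, 23 were tested, and 3 rose, 0 fell and 20 were not called, with a median of 0.75 that was 0.37 against replicate 1 and 0.65 against replicate 2. Fras1, which anchors epidermal basement membranes and is mutated in Fraser syndrome models, rose 4.50-fold from 2.14 and 1.45 CPM to 8.07 CPM with K3R3 (log2 2.17, SE 0.47; adjusted p = 0.0006 by edgeR). Npnt, the integrin ligand nephronectin, rose 2.49-fold from 6.66 and 5.64 CPM to 15.3 CPM with K3R3 (log2 1.32; adjusted p = 0.0172). Pxdn, the peroxidasin that cross-links collagen IV, rose 1.94-fold from 25.7 and 27.1 CPM to 51.2 CPM with K3R3 (log2 0.95; adjusted p = 0.0251). All 3 were coded bivalent, as were 7 of the 23 tested here, 184 of the 355 genes called in all and 1671 of all 13829 tested genes. Of the 23 tested, 15 lay above both wild-type libraries and 2 below both, against 33.9% and 34.2% of all tested genes. The share below both changes with level, and was 44.7% among genes at 10 CPM or more. Several of the 23, such as Lama2, Lamb3, Col4a6 and Fras1, averaged under 10 CPM. Of the 4725 tested genes below both, 3805 were among the 8521 at 10 CPM or more, so the share was lower under 10 CPM. The fitted change was below 0 for 52% of all tested genes and 65% of those at 10 CPM or more. Genes under 10 CPM were thus more often fitted above 0. The shares of all tested genes are not matched to the level of this list, and how far its position goes with low level was not tested. At a minimum mean of 2 CPM its median was 0.59. DESeq2 called 0 of the 23, with 6 higher and 2 lower at an unadjusted p under 0.05, limma did not keep Fras1 and Pxdn (adjusted p = 0.102 and 0.0586), and the totals implied by RPKM gave 6 called, all higher.

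The 2 genes of that list with the highest level per length, Nid2 and Agrn, lay on the same side as the members. Nid2, the second nidogen, stood at 187 and 134 CPM in the wild-type pair and 110.1 CPM with K3R3 (log2 -0.54; adjusted p = 0.179). Agrn, the heparan sulfate proteoglycan agrin, stood at 114 and 107 CPM in the wild-type pair and 78.6 CPM with K3R3 (log2 -0.49; adjusted p = 0.323). Neither was called. Lama4 and Lamb2, laminin chains outside the 9 that were named after their values were seen, lay on the other side at low levels. Lama4 (α4) stood at 4.19 and 5.20 CPM against 10.8 (log2 1.19; adjusted p = 0.0706), and Lamb2 (β2) at 4.57 and 5.28 CPM against 8.91 (log2 0.85; adjusted p = 0.363). Neither passed edgeR's quasi-likelihood test with TMM scaling, and Lama4 was called higher with the implied totals.

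Receptors for laminin and collagen IV were mostly uncalled. Of 16 tested, 0 rose and 1 fell, with a median of 0.0063 that changed sign under other settings. Sdc4, the heparan sulfate proteoglycan syndecan 4, fell 1.79-fold from 127 and 81.5 CPM to 58.3 CPM with K3R3 (log2 -0.84, SE 0.23; adjusted p = 0.0187 by edgeR), with -0.64 between the replicates. DESeq2 (adjusted p = 0.309), limma (0.0785) and the implied totals (0.0600) did not keep it. With the implied totals 1 receptor was called in the other direction, Itga7, an integrin α subunit that binds laminin, which was not called with TMM scaling (log2 1.85; adjusted p = 0.0878 by edgeR). Itgb1, the β1 subunit common to the laminin-binding integrins, stood at 617 and 580 CPM in the wild-type pair and 558 CPM with K3R3 (log2 -0.10, 95% interval -0.45 to 0.25, and 0.023 with the implied totals). Rpsa, the ribosomal protein also known as the laminin receptor, stood at 327 and 259.8 CPM in the wild-type pair and 256 CPM with K3R3 (log2 -0.20; adjusted p = 0.906).

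Enzymes and chaperones of collagen and laminin synthesis were not called by the edgeR test. Of 22 tested, 0 rose and 0 fell, and the median was -0.04. At an unadjusted p under 0.05, 2 were higher and 3 lower, beside 1092 and 460 of all 13829 tested genes. DESeq2 also called 0. P4hb, the disulfide isomerase subunit of prolyl hydroxylase, stood at 540.4 and 457 CPM in the wild-type pair and 479 CPM with K3R3 (log2 -0.06, and 0.066 with the implied totals). Ppib, a prolyl isomerase of collagen folding, stood at 65.3 and 58.9 CPM in the wild-type pair and 46.7 CPM with K3R3 (log2 -0.41; adjusted p = 0.632). Plod2, a lysyl hydroxylase named after its value was seen, lay closest to the threshold (log2 -0.70; adjusted p = 0.0509).

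Markers of other cell types that the cultures could hold were measured beside these genes. Of 19 extraembryonic endoderm markers tested, 0 rose and 3 fell, and the median was -0.22. The fallen genes were Srgn (serglycin, log2 -2.22), Cubn (the endocytic receptor cubilin, -2.15) and Gata6 (the factor that specifies primitive endoderm, -1.18), with adjusted p of 2.8e-05, 2.1e-11 and 0.0480 by edgeR. Gata6 was kept by 1 of the 7 other settings, that with DESeq2 size factors, and Srgn and Cubn by all 7. Apoe (-0.16) and Dab2 (-0.80), the highest of the list by mean RPKM over the 3 libraries, were not called by the edgeR test (adjusted p = 0.984 and 0.0528). Dab2 was called lower with DESeq2 size factors (adjusted p = 0.0486). The summed endoderm level was 470 and 414 CPM in the wild-type pair and 311 CPM in K3R3. It was lowest in K3R3, as were those of the members, the fibroblast markers and the pluripotency markers. Replicate 2 was below replicate 1 for 10 of the 19 endoderm markers, against all 9 members. Sox17 and Foxa2, defining factors of endoderm, were at or under 2.05 CPM in every library. Others of the list stood higher without being called. Gata4 was at 9.56 and 11.2 CPM in the wild-type pair and 5.80 CPM in K3R3, and Pdgfra at 37.2 and 49.4 CPM against 37.1 CPM. Sox17, Foxa2, Gata4 and Pdgfra were named after their values were seen. Afp, Ttr and Apoa1 had no row among the counts.

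Of 22 fibroblast markers tested, 1 rose (Thy1, log2 1.77; adjusted p = 0.0344, and 0.615 by DESeq2) and 0 fell, with a median of 0.45. Their summed level was 1692 and 1585 CPM in the wild-type pair and 1293 CPM in K3R3, most of it from Fn1 (fibronectin; 1229 and 1197 CPM against 864, log2 -0.49, adjusted p = 0.0981), and Vim (vimentin) stood at log2 -0.40. Of 20 pluripotency markers, 0 rose and 6 fell, with a median of -0.35 and a summed level of 8520 and 7578 CPM in the wild-type pair and 5840 CPM in K3R3. The fallen genes were Tbx3 (-1.25), Fbxo15 (-0.85), Tfcp2l1 (-0.85), Klf4 (-0.78), Sox2 (-0.62) and Dppa5a (-0.59), and Tdgf1 (-0.36) was not called. DESeq2 kept Tbx3 and Tfcp2l1. Sox2 and Dppa5a were also lost with edgeR's likelihood ratio test (adjusted p = 0.0802 and 0.0986), the implied totals (0.137 and 0.130) and limma (0.193 and 0.380), and limma called Dppa3 higher. The endoderm and pluripotency medians and all 3 summed levels were lower in K3R3, as the members were. The fibroblast median was above 0, with 15 of 22 fitted above 0 and 12 above both wild-type libraries. Of all 13829 tested genes, 6644 were fitted above 0 and 33.9% lay above both. Several of the 22, such as Col1a1, Col3a1, Thy1 and Twist2, averaged under 10 CPM, where genes were more often fitted above 0 than at higher levels. How far the fibroblast median goes with low level was not tested. The part of the 3 marker lists in the change of Col4a1 and Lama1 was not tested.

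**Figure D4:**
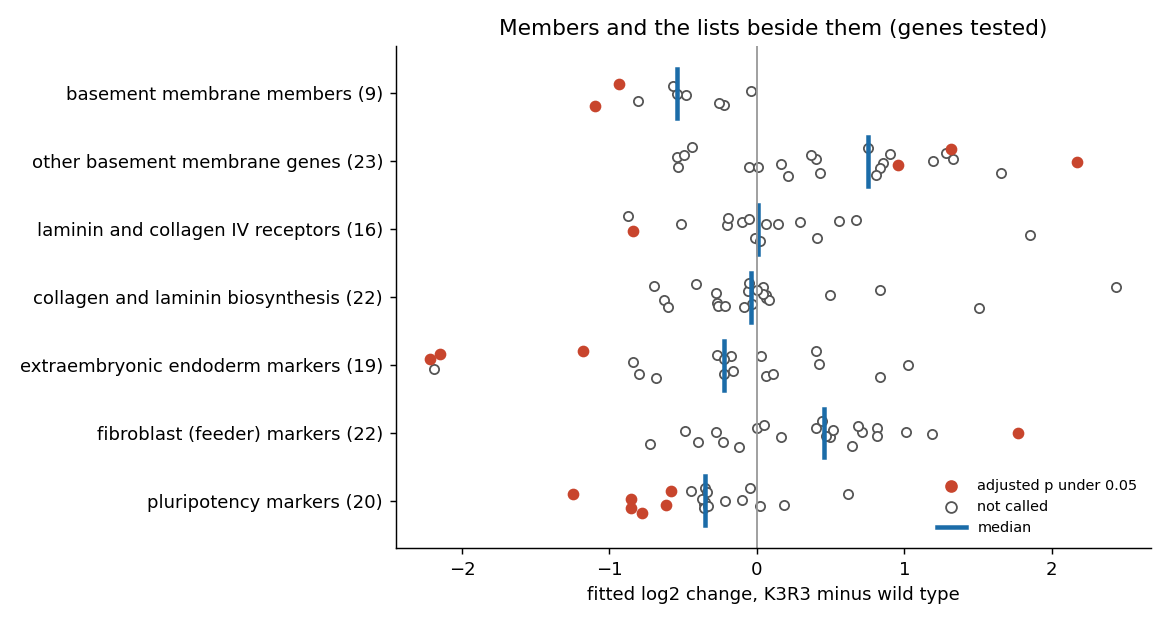
Fitted log2 change of K3R3 from wild type for each tested gene of the 7 lists, with the number tested in brackets, filled points for adjusted p under 0.05 and a bar at each median. Points are spread vertically only to be seen. The members lie left of 0 with a median of -0.54, and the other basement membrane genes have a median of 0.75.

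By likeness of pattern, Nid2 came closest to the members. Likeness was the Euclidean distance between log2 CPM profiles over the 3 libraries, each centred on its own mean, among 8512 other genes whose mean level reached 10 CPM. Nid2 lay 0.0034 from the mean profile of the members, followed by Aes (0.0072), Tmem8 (0.0100), the pseudogene Tyms-ps (0.0152) and Ckmt1 (0.0233). Within a distance of 0.1 there were 52 genes. A profile over 3 libraries is easily matched, and none of these 5 genes was called by edgeR (adjusted p from 0.179 to 0.723).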

How the data were processed

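Polyadenylated RNA of 3 libraries (2 wild type, 1 K3R3) had been sequenced after strand-specific preparation, per the labels' protocols. The authors deposited raw counts, for which the submitters' processing notes name HTSeq 0.5.4p1 and build mm9, together with RPKM values. Their own comparison (a linear fold ratio, the log2 of it and an uncorrected p-value) was deposited too, and the same notes name DESeq 1.10.1. The aligner, annotation and strand setting are not given in the sources used here. No count in the table was under 1, which leaves out any gene at 0 in a library. The counts made up 66.2% to 67.1% of the totals that the RPKM values imply.

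TMM factors were computed over all genes and genes with a mean under 0.5 CPM were left out. K3R3 was compared with wild type by the two-sided quasi-likelihood test of edgeR 4.0.16 (R 4.3.3), adjusted by Benjamini-Hochberg over 13829 genes at 0.05. Only the wild-type pair gave a spread (1 residual degree of freedom), which was taken to hold for K3R3 as well. Since edgeR estimated an infinite prior, p-values rest on the trend of dispersion with expression. Fitted changes carry a standard error, taken as the absolute log2 change over the square root of the test's F statistic, and a normal 95% interval. Both therefore rest on that trend as well, and not on each gene's own replicate spread. Differences between single libraries used log2 CPM (prior count 1). Ratios between chains used the deposited RPKM, with exact Clopper-Pearson intervals of the counts. The fit was also run on simulated counts drawn from its own dispersion trend, the same for both groups. That run cannot check whether the wild-type spread holds for K3R3, so it gives no support to the calls. Alternatives were DESeq2 1.42.0, edgeR's likelihood ratio test, DESeq2 size factors, totals implied by RPKM, other filters, limma 3.58.1 on log2(RPKM + 0.1), and each wild-type library left out. The members and lists were chosen with earlier results of these data known. Named genes were all members, and from each of 6 other lists up to 5 called genes by size of change and the 2 highest by RPKM. Promoter stretches came from RefSeq. One result is not reported here.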

Additional observations from a re-analysis of the deposited data

How the results depend on the processing

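The direction of Col4a1, Col4a2, Lama1, Lamb1, Lamc1, Nid1 and Sparc was the same under all alternatives run. Hspg2 turned to 0.30 without wild-type replicate 1, and Lama5 to 0.16 there, to 0.087 with the totals implied by RPKM and to 0.094 with limma. The implied totals raised the median of all genes from -0.01 to 0.10, and under them Itgb1 stood at 0.023 and P4hb at 0.066, against 0.023 and 0.070 with limma. The cause was not tested. No paired analysis was possible because only the wild-type libraries carry replicate numbers in the labels.

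DESeq2 called 59 genes in place of 355 (33 higher, 26 lower, against 280 and 75), and 1 member, Lama1. With limma 0 members were called, with 3 at an unadjusted p under 0.05. Among the settings run here, the share of all genes at an unadjusted p was computed for the main edgeR test only. The implied totals gave 465 higher and 50 lower (90.3% higher, against 78.9%). Without the low-count filter or at a minimum mean of 2 CPM the same 2 members were called. The member median ranged from -0.66 to -0.36 when 1 wild-type library was left out.

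Among the other lists, DESeq2 called 0 other basement membrane genes, 0 receptors, 0 fibroblast markers and 2 pluripotency markers, with 8, 2, 4 and 6 at an unadjusted p under 0.05. The implied totals gave 6 other basement membrane genes, 1 biosynthesis gene and 2 fibroblast markers. Limma gave 0 receptors (2 at an unadjusted p under 0.05) and 2 fibroblast markers. The likelihood ratio test, DESeq2 size factors and the table without a filter gave 1 biosynthesis gene each. The receptor median turned to -0.0051 with DESeq2 size factors and -0.012 at a minimum mean of 2 CPM, and the biosynthesis median to 0.082 with the implied totals and 0.091 with limma. With the implied totals and limma the medians were -0.077 and -0.080 for endoderm, 0.57 and 0.56 for fibroblast and -0.23 and -0.22 for pluripotency markers.

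With 1 wild-type library left out, which allows no test, the medians ranged from 0.37 to 0.65 (other basement membrane genes), -0.11 to 0.16 (receptors), -0.09 to -0.04 (biosynthesis), -0.30 to -0.28 (endoderm), 0.40 to 0.66 (fibroblast) and -0.47 to -0.25 (pluripotency). The log2 difference of the Lama1 to Lama5 ratio, chosen after seeing the data, was -0.90 and -0.88 against single wild-type libraries. The lone K3R3 library limits every comparison.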

Other observations

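A few basement membrane genes outside the 9 had too few counts to be tested. Col15a1, a collagen at the outer face of basement membranes, had 5 and 8 counts in the wild-type pair and 9 with K3R3. Ntn4, which encodes netrin 4, a laminin-related inhibitor of laminin polymerisation, had 2 and 11 counts in the wild-type pair and 11 with K3R3. Among genes that were tested, the Fras1 partner Frem2 had 367 and 783 counts in the wild-type pair and 1118 with K3R3 (log2 0.81; adjusted p = 0.102 by edgeR), and the collagen galactosyltransferase Glt25d2 had 4 and 11 counts in the wild-type pair and 46 with K3R3 (log2 2.44; adjusted p = 0.0992 by edgeR). Neither passed edgeR's quasi-likelihood test with TMM scaling, but both were called higher with the library totals implied by RPKM, and Glt25d2 also by edgeR's likelihood ratio test. These 4 genes were named after their values were seen.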
